A study of Homo sapiens with 8 samples.

Results

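The genes described here are the metallothioneins MT1A, MT1E, MT1F, MT1G, MT1H, MT1M, MT1X and MT2A, together with the zinc exporter SLC30A1 and the zinc-sensing transcription factor MTF1. They are 10 of the 17250 genes that had an assembled transcript in 1 or more of the libraries, and they share roles in metal handling. An assembled transcript counted for the GENCODE gene with 50% or more of its exon sequence, strand included, and the FPKM (fragment numbers normalised to transcript length and library size) of a gene's transcripts were added. RNA-seq was made on HepG2 and Hep3B, both established hepatocellular carcinoma (HCC) lines labelled wild type, and 1 library was deposited for each of 8 conditions. HepG2 cells received 2500 µM sodium pentaborate pentahydrate (NaB, a boron compound), 30 µM curcumin (Cur) with 6 µM piperine (Pip), or all 3 compounds together at these doses (the combination), and were set against untreated HepG2 cells. Hep3B cells received 1700 µM NaB, the same Cur and Pip, or the combination with 1700 µM NaB, and were set against untreated Hep3B cells. All treatments lasted 48 h, and with 1 library per condition no difference within a line has a replicate check.

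Metallothioneins are small cysteine-rich proteins that bind zinc, copper and cadmium and hold a store of zinc in the cell. When free zinc rises, MTF1 binds it through its zinc fingers, enters the nucleus and activates genes through short metal response elements, among them the metallothioneins and SLC30A1, which carries zinc out across the plasma membrane. The liver is a main site of metallothionein production, and glucocorticoids and oxidants also induce some of these genes.

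The libraries held an estimated 25.6 to 33.2 M fragments in HepG2 and 31.4 to 35.7 M under the Hep3B label. The 4 libraries labelled Hep3B did not carry the markers of their labelled cell type. Of 20 hepatocyte markers, 1 or 2 reached an FPKM of 1 in them, with a summed FPKM of 5.81 to 24.0, and AFP did not exceed 0.615 FPKM. In HepG2, 16 to 19 of the 20 reached it, with a summed FPKM of 7576 to 16934. Of 5 fibroblast markers, 3 or 4 were listed at that level under the Hep3B label, and none in HepG2. Their summed FPKM was 85.7 with NaB, 60.0 with Cur and Pip and 38.0 with the combination, against 304 in the control labelled Hep3B, so it was lower in each treated library, and its part in the results under that label was not tested. Of 5 leukocyte markers, PTPRC and CD3E were at 0 in all 8 libraries, and LYZ, which encodes lysozyme, had 513 FPKM with NaB, 149.8 with Cur and Pip and 258 with the combination, against 1390 FPKM in the HepG2 control. ALB and AFP had no transcript in the HepG2 control, although ALB had 2989 to 7518 FPKM in the treated HepG2 libraries, so a gene without a transcript is not read here as one without RNA. These libraries are therefore called the libraries labelled Hep3B, and in bulk RNA fewer cells that express a gene and less of its RNA per cell cannot be told apart. Single-exon transcripts made up 22.7% (NaB), 34.1% (Cur and Pip) and 32.2% (combination) of the HepG2 assemblies, against 16.4% in the HepG2 control. In the libraries labelled Hep3B they made up 19.1%, 22.4% and 28.4% in the same order of treatments, against 14.7% in the control. The part of this difference in the results was not tested.

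Promoters are shown first so that the letters of the metal response element can be seen where they occur in the set. RefSeq promoter windows (GRCh38.p14) matched 5 of the 10 genes, namely MT2A, MT1X, MT1H, SLC30A1 and MTF1. The 250 bases before each start were searched on both strands for the cores TGCACNC and TGCGCNC of the metal response element, and every match is in capitals in the sequences, which run 5′ to 3′ on the gene's own strand.
MT2A (chr16:56608334-56608583, plus strand): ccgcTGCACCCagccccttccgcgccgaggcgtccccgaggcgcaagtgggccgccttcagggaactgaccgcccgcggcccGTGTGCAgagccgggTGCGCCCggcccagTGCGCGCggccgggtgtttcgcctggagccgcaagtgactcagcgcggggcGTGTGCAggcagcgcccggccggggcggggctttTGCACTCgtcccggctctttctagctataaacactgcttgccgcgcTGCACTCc
MT1X (chr16:56682220-56682469, plus strand): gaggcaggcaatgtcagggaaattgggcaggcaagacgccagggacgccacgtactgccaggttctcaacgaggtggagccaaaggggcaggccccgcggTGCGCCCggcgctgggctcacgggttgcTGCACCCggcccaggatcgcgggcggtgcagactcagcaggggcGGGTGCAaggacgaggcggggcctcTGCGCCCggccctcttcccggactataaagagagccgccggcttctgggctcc
MT1H (chr16:56669564-56669813, plus strand): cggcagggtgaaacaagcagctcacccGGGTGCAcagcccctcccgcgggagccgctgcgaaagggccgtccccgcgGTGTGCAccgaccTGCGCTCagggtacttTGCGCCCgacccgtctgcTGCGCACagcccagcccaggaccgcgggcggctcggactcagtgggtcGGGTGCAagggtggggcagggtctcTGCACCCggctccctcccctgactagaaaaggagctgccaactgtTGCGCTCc
SLC30A1 (chr1:211579162-211579411, minus strand): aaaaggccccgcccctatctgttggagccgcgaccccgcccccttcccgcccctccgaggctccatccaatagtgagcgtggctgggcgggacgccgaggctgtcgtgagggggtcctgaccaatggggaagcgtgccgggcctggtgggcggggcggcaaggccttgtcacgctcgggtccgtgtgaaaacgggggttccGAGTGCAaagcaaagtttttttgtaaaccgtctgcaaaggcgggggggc

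MT1H held 8 cores, MT2A 7, MT1X 4, SLC30A1 1 and MTF1 none, and no matches overlapped. Of 35116 RefSeq promoter windows of the same length, 24.8% held at least 1 core, 0.370% at least 4, 0.0313% at least 7 and 0.0171% at least 8. MT2A and MT1H each had a core at −8 to −2 from the start, and MT1X and MT1H each had cores at −78 to −72 and −53 to −47. The cores are a description of the sequence and were not tested for binding.

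**Figure D1:**
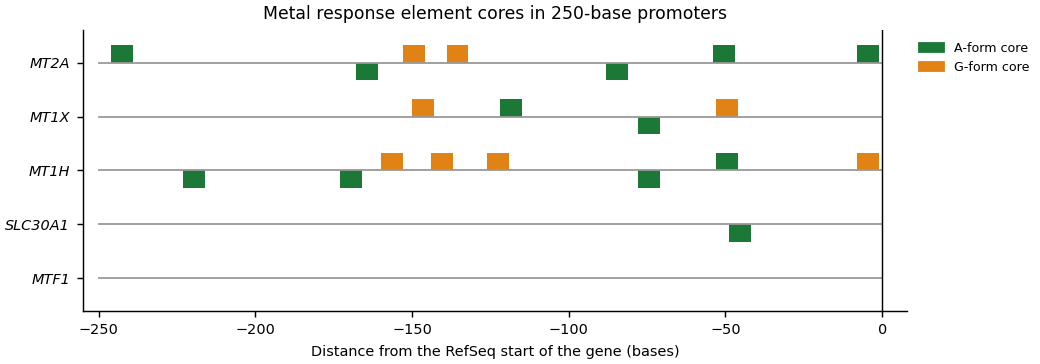
Positions of the TGCACNC (green, A-form) and TGCGCNC (orange, G-form) cores in the 250 bases before the RefSeq start of 5 genes, with boxes above the line on the gene's strand and below it on the opposite strand; the x axis is the distance from the start in bases. MT1H holds 8 cores, MT2A 7, MT1X 4, SLC30A1 1 and MTF1 none.

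Among the 10 genes, 8 had an FPKM of at least 1 in HepG2 and 6 under the Hep3B label. MT1H (ENSG00000205358.4, chr16:56669814-56671129, plus strand), the gene with most cores, and MT1M (ENSG00000205364.4, chr16:56632659-56633981, plus strand) had no transcript in any of the 8 libraries. A gene was called past the threshold where its log2 ratio of (FPKM + 1) against the control of its line was over 1.5 in either direction, a change of 2.83-fold. Over the 6 comparisons with a control, 12 of the 60 pairs of gene and comparison were past it. The 60 include genes below an FPKM of 1 in the line, which were not tested. Of the 8 tested in HepG2, 3 were lower with NaB, 3 lower and 1 higher with Cur and Pip, and 2 lower with the combination. Of the 6 tested under the Hep3B label, 0, 2 and 1 were past it in that order, all lower. Of all genes tested, 9.74% (NaB), 19.1% (Cur and Pip) and 19.5% (combination) were past it in HepG2, and 12.0%, 10.4% and 15.0% under the Hep3B label. In 5 of the 12 the gene had a transcript in only 1 of the libraries compared, which gives no fold change, and 7 had one in both. All 7 were lower after treatment, and all were in HepG2.

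**Figure D2:**
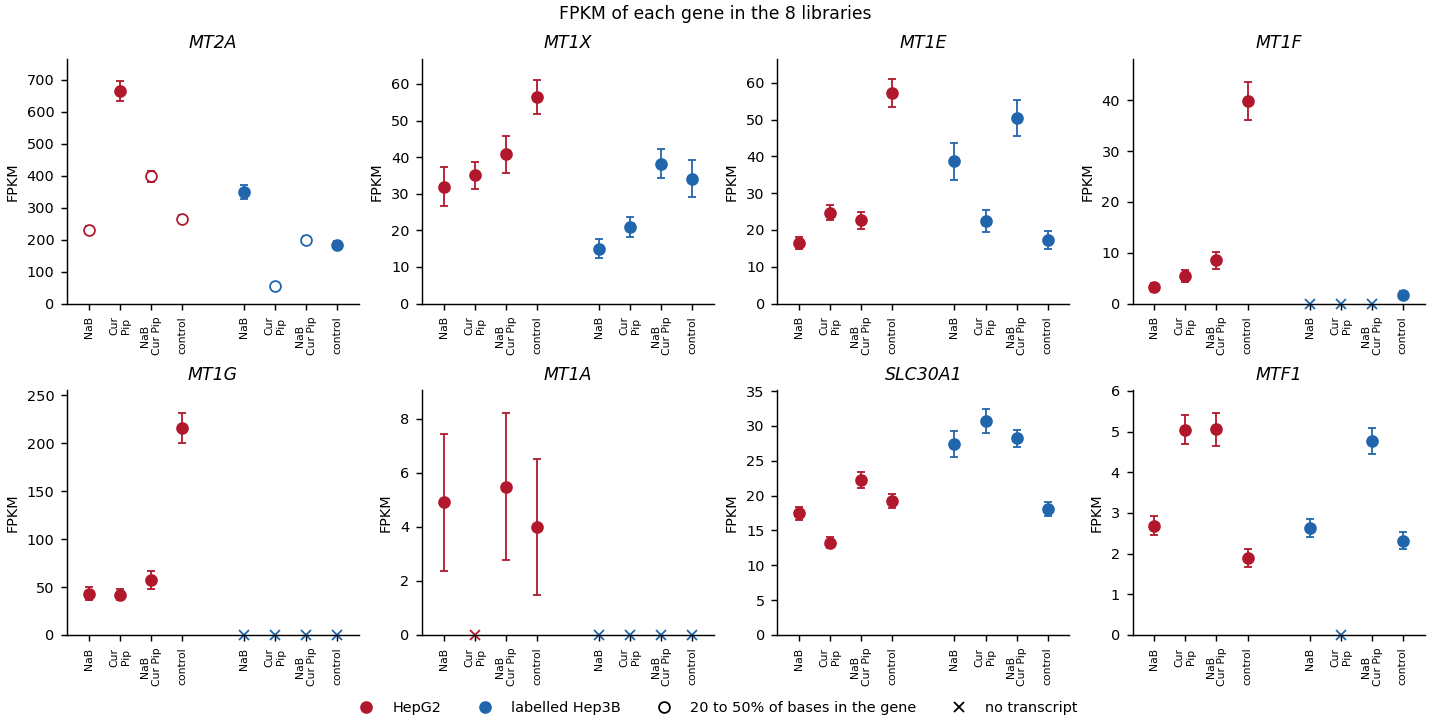
FPKM of 8 genes in each library (y axis, from 0), with the 95% interval that Cufflinks gave; treated libraries stand left of the control, HepG2 in red and the libraries labelled Hep3B in blue. MT1G, MT1F and MT1E are lower in all treated HepG2 libraries than in the HepG2 control, and hollow points are MT2A transcripts with under 50% of their bases in the annotated gene.

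MT1G, MT1F and MT1E, which encode metallothioneins of the MT1 branch that differ in a few residues, were the genes past the threshold with a transcript in both libraries under the 50% rule, all in HepG2. MT1G (ENSG00000125144.14, chr16:56666730-56668065, minus strand) had 43.2 FPKM with NaB, 42.1 with Cur and Pip and 57.4 with the combination, against 216 FPKM in the HepG2 control. The treated libraries lay close together and their intervals, which reached no higher than 66.9, did not overlap that of the control, 200.4 to 231. The share of all genes with intervals that do not overlap was not computed, here or for the genes below. The log2 fold changes were −2.29, −2.33 and −1.89. No MT1G transcript was assembled in any library labelled Hep3B.

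MT1F (ENSG00000198417.7, chr16:56657731-56660698, plus strand) had 3.17 FPKM with NaB, 5.39 with Cur and Pip and 8.49 with the combination, against 39.9 FPKM in the HepG2 control. All 3 treated levels were low and their intervals did not overlap that of the control, and the estimated fragments behind them were 90.4, 137 and 183, against 1103. The log2 fold changes were −3.29, −2.68 and −2.11. Among the libraries labelled Hep3B, MT1F was assembled in the control alone, at 1.65 FPKM.

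MT1E (ENSG00000169715.15, chr16:56625475-56627112, plus strand) had 16.5 FPKM with NaB, 24.7 with Cur and Pip and 22.6 with the combination, against 57.1 FPKM in the HepG2 control. The log2 fold changes of MT1E in HepG2 were −1.74, −1.18 and −1.30, so that NaB alone was past the threshold. MT1E in the libraries labelled Hep3B stood above its control, and no value was past the threshold. It had 38.7 FPKM with NaB, 22.5 with Cur and Pip and 50.4 with the combination, against 17.2 FPKM in the control, with log2 fold changes of 1.12, 0.37 and 1.497. The intervals overlapped the control with Cur and Pip, and not with the other treatments. The combination stood just under the threshold, and by FPKM times assembled length, a measure described with MT2A below, the 3 differences were 0.63, 0.08 and 1.04.

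Read by treatment, in HepG2 NaB left 3 of the 7 genes with a transcript in both libraries lower (MT1E, MT1F and MT1G), where 1.79% of all 11146 such genes were past the threshold in that direction. Cur and Pip left 2 of 6 lower (MT1F and MT1G), against 7.24% of all 10981 genes, and the combination 2 of 7, the same genes, against 7.29% of 10721. The medians over the set were −0.80, −0.93 and −0.46, against 0.01, −0.02 and −0.02 over all genes with a transcript in both libraries. With MT2A included at the 20% limit described with that gene below, the medians of the set were −0.50, −0.67 and −0.13. Under the Hep3B label no gene of the set with a transcript in both was past the threshold, where either direction was reached by 5.80% (NaB), 3.24% (Cur and Pip) and 6.95% (combination) of all genes. The 3 treatments share 1 control library in each line, so the similar values in HepG2 are not independent.

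**Figure D3:**
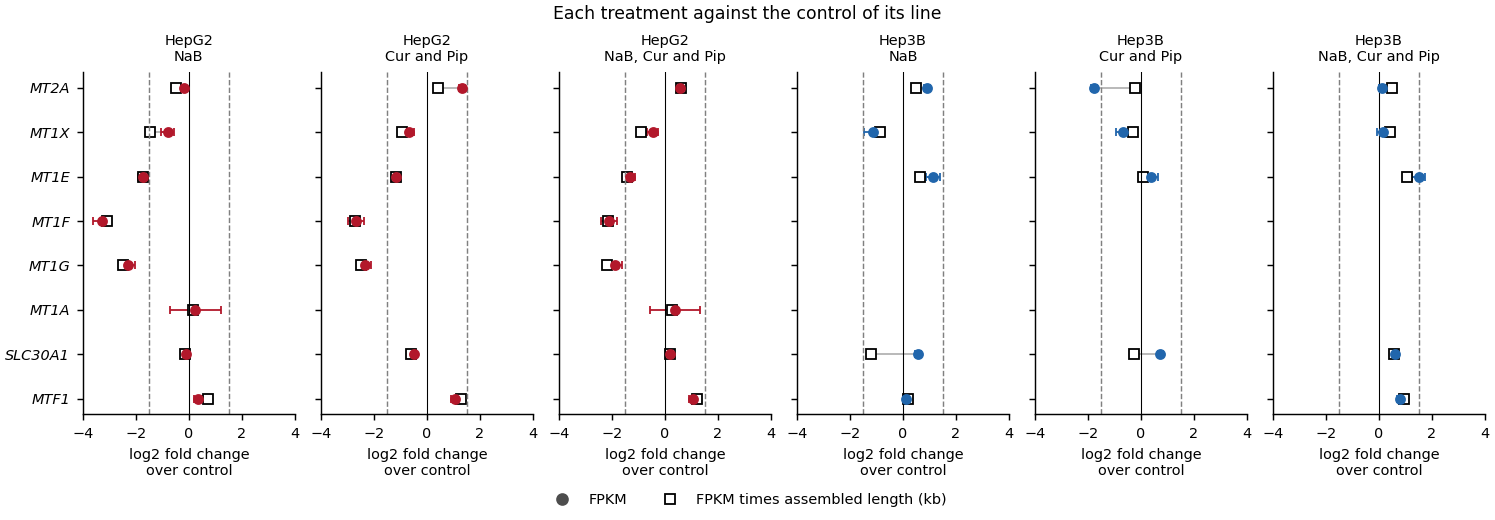
Log2 fold change of each gene over the control of its line (x axis) in the 6 comparisons, from FPKM (filled, with the half-width from the Cufflinks intervals) and from FPKM times assembled length (hollow squares); dashed lines mark 1.5 in each direction. MT1F and MT1G lie beyond −1.5 in all 3 HepG2 comparisons by both measures, while MT2A and SLC30A1 separate under the Hep3B label.

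MT1G transcripts came in 2 forms in HepG2 that differ by 3 bases at the start of exon 2, both in the annotation. The end of intron 1 and the start of exon 2 are printed for the minus strand, with the 3 optional bases (56667378 to 56667380) in capitals, because the forms share all other splice sites.
MT1G exon 2 acceptor (chr16:56667358-56667400, hg38, minus strand): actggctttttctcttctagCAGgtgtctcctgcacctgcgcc

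The form that keeps the 3 bases made up 85.2% of MT1G FPKM with NaB, 74.5% with Cur and Pip and 84.2% with the combination, against 79.2% in the HepG2 control. It was the larger form in all 4 libraries, and both forms were lower in every treated library than in the control. The form that keeps them had 36.8, 31.4 and 48.3 FPKM in the 3 treated libraries, against 171 in the control, and the other form 6.41, 10.7 and 9.07 FPKM, against 44.8.

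MT1X (ENSG00000187193.9, chr16:56682470-56684196, plus strand) did not pass the threshold. MT1A (ENSG00000205362.11, chr16:56638666-56640087, plus strand) did not pass it where it had a transcript in both libraries. MT1X had 31.9 FPKM with NaB, 35.0 with Cur and Pip and 40.7 with the combination, against 56.5 FPKM in the HepG2 control, and log2 fold changes of −0.80, −0.67 and −0.46. MT1X in the libraries labelled Hep3B had 14.9, 20.9 and 38.2 FPKM in the same order, against 34.1 in the control, and log2 fold changes of −1.14, −0.68 and 0.16. MT1X was thus lower than its control in 5 of the 6 comparisons, with intervals that did not overlap in those 5. By FPKM times assembled length the differences in HepG2 were larger, at −1.45, −0.94 and −0.89, and NaB stood just under the threshold, while under the Hep3B label they were −0.85, −0.32 and 0.43. MT1X overlaps a long non-coding RNA gene, and its reads may be shared with it. MT1A, expressed at a low level, had 4.91 FPKM with NaB and 5.49 with the combination, against 4.0 FPKM in the HepG2 control, with overlapping intervals. No MT1A transcript was assembled with Cur and Pip or in any library labelled Hep3B. Its absence in HepG2 with Cur and Pip was counted above as past the threshold and lower, without a fold change.

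MT2A (ENSG00000125148.7, chr16:56608584-56609497, plus strand), the metallothionein with the highest FPKM in each of the 8 libraries, was the gene whose value depended most on how its transcript was assembled. The 50% rule placed it in 3 libraries only: HepG2 with Cur and Pip, and the libraries labelled Hep3B with NaB and without treatment. In the other 5 libraries a transcript with both annotated MT2A introns was assembled, but it began 428 to 1394 bases before the annotated start, so that 22.0% to 47.7% of its bases lay in the annotated exons. A limit of 20% placed MT2A in all 8 libraries, and this limit gives the values that follow.

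**Figure D4:**
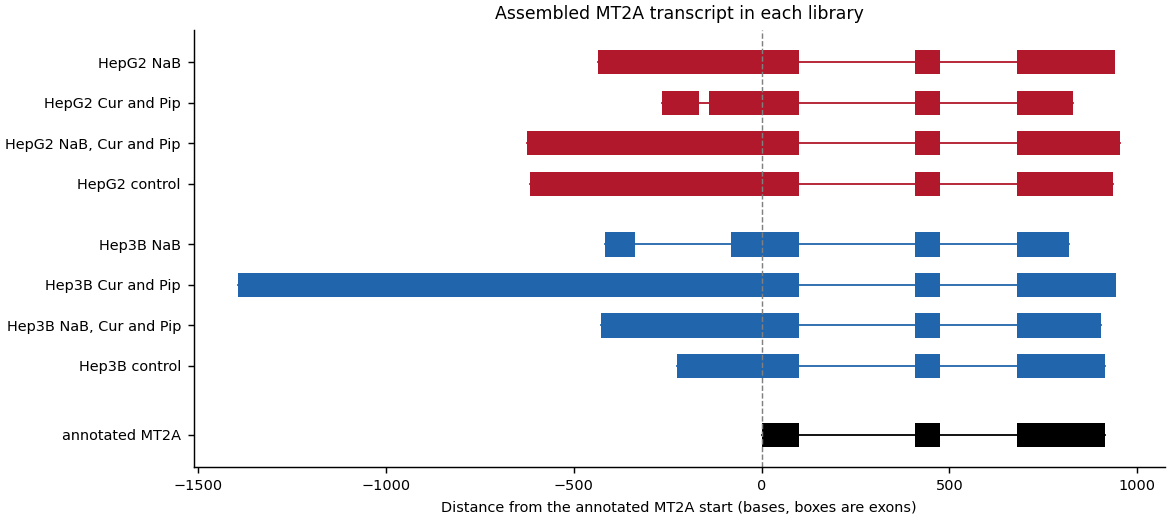
The MT2A transcript assembled in each library (boxes are exons, lines introns), drawn by distance in bases from the annotated start, with the annotated transcript at the bottom. All 8 share the second exon and both annotated introns, and the first exon reaches furthest, 1394 bases, upstream in the library labelled Hep3B with Cur and Pip.

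MT2A had 230.1 FPKM with NaB, 665 with Cur and Pip and 398 with the combination, against 265 FPKM in the HepG2 control. The log2 fold changes were −0.20, 1.33 and 0.59, with none past the threshold, and none of the 3 treated intervals overlapped that of the control. MT2A in the libraries labelled Hep3B had 349 FPKM with NaB, 53.6 with Cur and Pip and 199.8 with the combination, against 185 FPKM in the control, and log2 fold changes of 0.92, −1.77 and 0.11. Cur and Pip thus stood past the threshold and lower, where 1.62% of all 11761 genes with a transcript in both libraries at this limit were past it in that direction.

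FPKM divides the fragments of a transcript by its assembled length, which for MT2A ran over 464 to 1823 bases, so the same fragments give a lower FPKM on a longer transcript. FPKM times the assembled length in kilobases, a measure chosen after the values were seen, takes that division out. This product counts only fragments on the assembled bases, including those before the annotated start, and is lower where a transcript is cut short. By it MT2A had 198 with NaB, 369 with Cur and Pip and 424 with the combination, against 275 in the HepG2 control, and log2 fold changes of −0.47, 0.42 and 0.62. In the libraries labelled Hep3B it had 162, 97.6 and 163, against 116 in the control, and log2 fold changes of 0.48, −0.24 and 0.50. The low value of MT2A with Cur and Pip under the Hep3B label was therefore 0.29 of the control by FPKM and 0.84 of it by FPKM times length. The latter includes fragments from the bases before the annotated start. When the depth of the transcript was apportioned over the annotated exons, which keeps the division by length, the log2 fold change was −1.77, past the threshold as by FPKM. MT1E, MT1F and MT1G in HepG2 stayed on the same side of the threshold by both measures.

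MT2P1, a processed pseudogene on chromosome 4, has 178 of its 183 bases (97.3%) identical to MT2A, so reads of the MT2A transcript can map to it. It was listed in 2 of the 8 libraries, at 55.6 FPKM with Cur and Pip under the Hep3B label and at 19.5 FPKM with the combination in HepG2, in each as a single-exon transcript. By FPKM times length these were 10.2 and 5.14, against 97.6 and 424 for MT2A in the same libraries. The other metallothionein genes and pseudogenes of the annotation had no transcript in any library.

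The sum over the metallothioneins differed between libraries mainly through MT2A and, in HepG2, MT1G. At the 20% limit the summed FPKM was 329.8 with NaB, 772 with Cur and Pip and 533 with the combination, against 638 in the HepG2 control, and under the Hep3B label 403, 96.9 and 288, against 238. MT2A made up 69.8%, 86.1% and 74.7% of the sum in the treated HepG2 libraries, against 41.5% in the HepG2 control, where MT1G, MT1E, MT1X and MT1F made up most of the rest. Without MT2A the sum was 99.7, 107 and 135 FPKM, against 373 in the HepG2 control, with log2 fold changes of −1.89, −1.79 and −1.46. The sum without MT2A under the Hep3B label was 53.7, 43.4 and 88.6 FPKM, against 53.0 in the control, with log2 fold changes of 0.02, −0.28 and 0.73. In HepG2 the summed MT1 genes were thus lower in all 3 treated libraries, where LYZ was also lower (values above) and its part in this was not tested, while MT2A lay between 0.87 and 2.51 of its control by FPKM. With MT2A taken only where the 50% rule placed it, the sum reflects its placement, and its log2 fold changes were −1.89, 1.05 and −1.46 in HepG2 and 0.76, −2.43 and −1.41 under the Hep3B label.

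**Figure D5:**
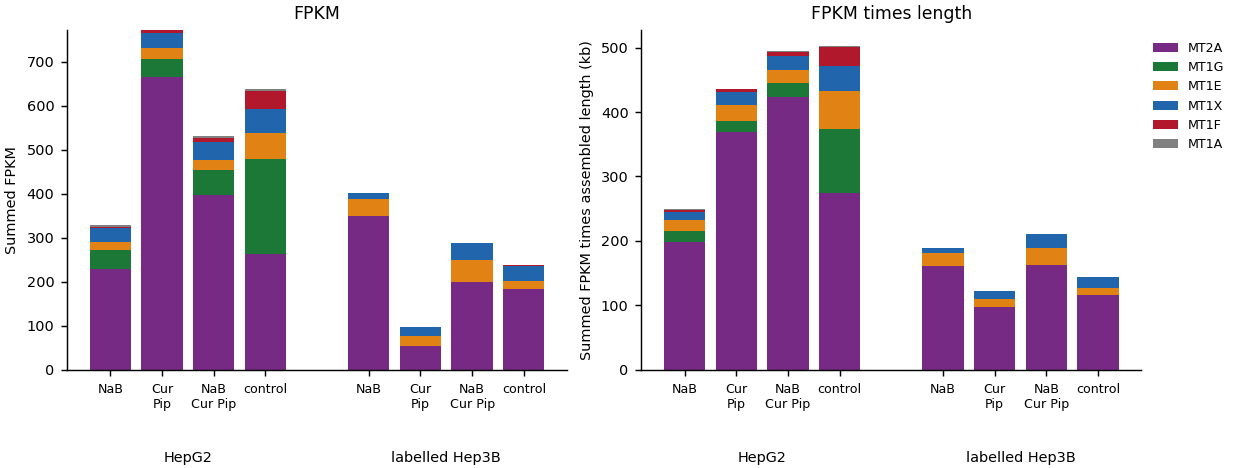
Summed level of the metallothioneins in each library, stacked by gene and with MT2A at the 20% limit, as FPKM (left) and as FPKM times assembled length in kilobases (right); both y axes start at 0. MT2A makes up 41.5% of the FPKM in the HepG2 control and 69.8% to 86.1% in the treated HepG2 libraries, and MT1G (green) is found in HepG2 alone.

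SLC30A1 (ENSG00000170385.10, chr1:211571568-211579161, minus strand), the zinc exporter of the plasma membrane, did not pass the threshold by FPKM in any comparison. It had 17.5 FPKM with NaB, 13.3 with Cur and Pip and 22.2 with the combination, against 19.2 FPKM in the HepG2 control. The log2 fold changes were −0.13, −0.50 and 0.20, and by FPKM the level with Cur and Pip was the lowest of the 8 libraries. SLC30A1 in the libraries labelled Hep3B had 27.4, 30.7 and 28.2 FPKM in the 3 treated libraries, against 18.1 FPKM in the control, and log2 fold changes of 0.58, 0.73 and 0.61. All 3 were higher than the control by FPKM, with intervals that did not overlap. Its transcript was cut short with NaB, at 1659 bases, and with Cur and Pip, at 2951 bases, against 5957 bases in the control. By FPKM times length the 3 differences were −1.22, −0.25 and 0.58, so that only the combination was higher by both measures. By FPKM times length the level with NaB under the Hep3B label, 45.5, was the lowest of the 8 libraries (79.1 in HepG2 with Cur and Pip). A cut transcript lowers this product by construction, so the low values with NaB and with Cur and Pip are not read as lower expression.

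MTF1 (ENSG00000188786.10, chr1:37809574-37859592, minus strand), the zinc sensor that binds the metal response elements, was expressed at a low level. It had 2.69 FPKM with NaB, 5.05 with Cur and Pip and 5.05 with the combination, against 1.90 FPKM in the HepG2 control, with log2 fold changes of 0.35, 1.06 and 1.06. All 3 treated levels were above that of the control, with intervals that did not overlap, and none was past the threshold. MTF1 in the libraries labelled Hep3B had 2.63 FPKM with NaB and 4.77 with the combination, against 2.32 FPKM in the control, with log2 fold changes of 0.13 and 0.80. No MTF1 transcript was assembled with Cur and Pip under that label, an absence counted above as past the threshold and lower, without a fold change. MTF1 was thus higher, by FPKM, in the same HepG2 libraries that had lower MT1F and MT1G.

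The combination treatment was also set against each of its parts. Against NaB alone in HepG2, no gene of the set with a transcript in both libraries was past the threshold, where 10.2% of all such genes were. The 8 measured genes at the 20% limit were all above 0, with a median of 0.42 against −0.03 over all genes. The share of all genes above 0 was not computed, and the intervals of MT1A, MT1G and MT1X overlapped. MT1F had the largest difference of the 8, 1.19, with 8.49 FPKM with the combination and 3.17 FPKM with NaB. Against Cur and Pip in HepG2 none was past it either, against 4.59% of all genes, and MT2A differed by −0.74 by FPKM and by 0.20 by FPKM times length. In the libraries labelled Hep3B the combination likewise left no gene of the set with a transcript in both past the threshold under the 50% rule, against NaB (3.48% of all genes) or against Cur and Pip (3.77%). MT1X differed most from NaB by FPKM, by 1.30, at 38.2 FPKM with the combination and 14.9 FPKM with NaB. By FPKM times length SLC30A1 was past the threshold there, with a difference of 1.80 from NaB, where it differed by 0.04 by FPKM. Its transcript with NaB was cut short, which lowers that product. MT2A at the 20% limit differed there from Cur and Pip by 1.88 by FPKM, which is past the threshold (1.59% of all genes were, in that direction), and by 0.74 by FPKM times length.

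The untreated lines differed in the same genes. MT1F stood at 39.9 FPKM in untreated HepG2 cells and at 1.65 FPKM in untreated cells labelled Hep3B, a log2 difference of 3.95, and MT1E had 57.1 and 17.2 FPKM, a difference of 1.67. These 2 of the 5 genes with a transcript in both controls were past the threshold and higher in HepG2, where 7.14% of all 10334 genes were. SLC30A1, at 19.2 FPKM in HepG2 and 18.1 FPKM under the Hep3B label, and MTF1, at 1.90 and 2.32 FPKM, had overlapping intervals. MT1G and MT1A were assembled in the HepG2 control alone.

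The only test the design allows takes the lines as the 2 values of each treatment, in 1 limma fit on log2(FPKM + 1) over 15445 genes with 3 residual degrees of freedom. No gene of the set passed a Benjamini-Hochberg adjusted p of 0.05. The fit called 0 genes of all (0%) with NaB, 4 (0.0259%) with Cur and Pip, and 11 (0.0712%) with the combination, and 0 in each once any 1 library was left out, against 726, 916 and 1655 in the full fit at an unadjusted p under 0.05. MT1F came nearest by unadjusted p, with a log2 difference of −2.35 (SE 0.52) for NaB and an adjusted p of 0.898 by limma, in which the value under the Hep3B label rests on the absence of a transcript in the treated library against 1.65 FPKM in the control. For Cur and Pip MT1F differed by −2.04 and for the combination by −1.76, with the same absence and each with SE 0.52, at limma adjusted p of 0.686 and 0.416. MT1E, with opposite signs in the lines, differed by −0.31, −0.41 and 0.10 for the 3 treatments, each with SE 0.77.

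The other genes of metal handling and oxidant defence were described by list. Of 9 other zinc exporters of the SLC30 family, 5 had a transcript in both libraries in each comparison, and none was past the threshold in any of the 6. Of all genes with a transcript in both, 3.39% (NaB), 12.4% (Cur and Pip) and 12.0% (combination) were past it in either direction in HepG2. Under the Hep3B label these shares were 5.80%, 3.24% and 6.95%. Of 14 SLC39 zinc importers, which carry zinc into the cytosol, 2 of 11 were past it and lower in HepG2 with Cur and Pip (7.24% of all genes were) and 2 of 11 with the combination (7.29%). SLC39A14 had 35.0 FPKM with Cur and Pip and 60.4 FPKM with the combination, against 328 FPKM in the HepG2 control, with log2 fold changes of −3.19 and −2.42. SLC39A5 had 4.34 FPKM with Cur and Pip, against 33.7 in the HepG2 control (−2.70), and SLC39A11 4.73 FPKM with the combination, against 23.2 (−2.08). With NaB 1 of 9 importers, SLC39A11, was past it and lower under the Hep3B label (4.10% of all genes were), at 2.99 FPKM against 12.8 in the control (−1.79), and none with the other treatments. Of 10 copper genes, 1 was past it and lower in each HepG2 comparison, where 1.79% (NaB), 7.24% (Cur and Pip) and 7.29% (combination) of all genes were. ATP7B, the copper pump of the liver, was that gene with Cur and Pip (7.13 FPKM) and with the combination (3.79 FPKM), against 26.8 FPKM in the control. COMMD1, which takes part in copper export, was that gene with NaB, at 13.9 FPKM against 85.3 FPKM in the HepG2 control, and none of the 10 was past the threshold under the Hep3B label.

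Genes of the oxidant and metal stress response went the other way with Cur and Pip. In HepG2, 7 of 8 were past the threshold and higher with Cur and Pip (5.17% of all genes were), 4 of 8 with the combination (4.68%) and none of 8 with NaB (1.61%), with medians of 2.31, 1.46 and 0.13. HMOX1, the haem-degrading enzyme, had 307 FPKM with Cur and Pip, against 38.3 FPKM in the HepG2 control, a log2 fold change of 2.97. SLC7A11, which imports cystine, differed by 2.96, and OSGIN1 by 2.65. GCLM, for glutathione synthesis, differed by 2.37, and its higher value with the combination (2.06) went to −0.02 when the depth of its transcript was apportioned over the annotated exons. With Cur and Pip under the Hep3B label, 3 of 8 stood past it and higher (1.82%), HMOX1, OSGIN1 and SLC7A11, and 2 of 7 with the combination (2.43%), OSGIN1 and SLC7A11. NQO1, a quinone reductase, was the member not past it in HepG2 with Cur and Pip, at 204 FPKM against 312 FPKM in the control (−0.61). Thus in HepG2 with Cur and Pip 7 of the 8 stress genes were higher, while MT1F and MT1G were lower and MT2A was 1.34 to 2.51 of its control.

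Of 7 genes induced by glucocorticoids, which also act on MT2A, 6 had an FPKM of at least 1 in HepG2, and 1 of them with Cur and Pip (5.17% of all genes) and 2 with the combination (4.68%) were past the threshold and higher. These were DUSP1 (1.86 with Cur and Pip and 1.90 with the combination) and SGK1 (1.58 with the combination). TSC22D3 was past it and lower under the Hep3B label, at 8.11 FPKM with NaB (4.10% of all genes were) and 13.8 FPKM with the combination (4.52% of all genes were past the threshold and lower there), against 74.3 FPKM in the control. None of the 7 regulators and partners of metallothionein genes (NR3C1, EP300, SP1, USF1, USF2, NFE2L2 and KEAP1) was past the threshold in any of the 6 comparisons. Of all genes with a transcript in both libraries, 3.39% (NaB), 12.4% (Cur and Pip) and 12.0% (combination) were past it in HepG2. Under the Hep3B label the shares were 5.80%, 3.24% and 6.95%.

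The genes whose pattern was most like that of the summed metallothioneins at the 20% limit, over the 8 libraries centred on the mean of their line, were TM9SF3 (Pearson r 0.961), BCL2L12 (0.959), S100A2 (0.955), SCO1 (0.954) and TM4SF1 (0.951), out of 8169 genes searched. With MT2A only where the 50% rule placed it, the 5 were NIBAN2, PSMG2, TOMM20, WNT7B and POLR1B, at r of 0.912 to 0.969, and no gene was in both lists. The 8 points share a control library within each line and the assembly of MT2A, so these correlations are a description.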

How the data were processed

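Per the labels and the study's methods, RNA was extracted with an RNeasy kit, in triplicate, though whether the triplicates were pooled is not given, and libraries were made with a directional kit. The authors mapped reads to GRCh38 with STAR and assembled each library on its own with Cufflinks (no versions are stated in the sources used here). The deposited transcript files hold, besides a score column that was not used, an FPKM with a 95% interval for each transcript. Assembled introns matched GENCODE release 44 in 95.1% to 96.8% of cases. Transcripts were assigned to genes as stated above, without a count test because the unit is FPKM. Genes that reached an FPKM of 1 in any library of a line were compared, with a pseudocount of 1, so that fold changes on the log2(FPKM + 1) scale understate the change of low genes. Fragments were estimated from coverage and length. The fit used limma 3.58.1 in R 4.3.3, and Python 3.11.15 did the rest. Tested on simulated data for the combination over 15445 genes, the fit recovered 86.9% of 100 genes changed by 2 on the log2 scale. It recovered 100% of 100 changed by 4. False calls were 8.7 on average. The simulation gave every gene the same noise, whereas in the fit to the deposited libraries the SE for NaB was 0.35 for MT1X and 4.45 for MT2A. The simulated recovery therefore does not carry over to the deposited libraries, where recovery of changes of these sizes was not tested. In those libraries MT1F, at −2.35 (SE 0.52) for NaB, had an adjusted p of 0.898 by limma. The members and lists were chosen with earlier results of these data known. All 10 members are named, and of each other list up to 4 genes past the threshold with a transcript in both libraries, by size of change. Likeness was searched among protein-coding genes with a transcript in all 8 libraries and an FPKM of at least 5 in any of them. The fit takes out the level of each line, so its p-values rest on how far the treatment differences disagree between the lines, with variances moderated over genes. They do not measure a spread among replicates. The closing section gives the alternatives.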

Additional observations from a re-analysis of the deposited data

Results flagged for a closer look

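The MT1E log2 fold changes had opposite signs in the 2 lines. Its log2 fold changes were −1.74 with NaB, −1.18 with Cur and Pip and −1.30 with all 3 compounds in HepG2. The libraries labelled Hep3B gave 1.12, 0.37 and 1.497 in that order. The value with Cur and Pip under the Hep3B label had an interval that overlapped the control and was 0.08 by FPKM times length, and no value under that label was past the threshold. The difference between the lines was not tested, since each value rests on 1 library, and the NaB dose differed between the lines.

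A single-exon transcript on the plus strand began 469 to 471 bases past the end of MT1E and was assigned to no metallothionein of the set. Whether it was assigned to a gene outside the set was not recorded. It was listed at 0.950 FPKM in HepG2 with Cur and Pip, and under the Hep3B label at 1.13 FPKM with NaB, 3.14 FPKM with Cur and Pip and 2.50 FPKM with the combination. It was not assembled in either control, nor in HepG2 with NaB or with the combination.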

How the results depend on the processing

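Taken only from the 50% rule, the count of 12 pairs past the threshold became 22 with a fold threshold of 1 on the log2 scale, and 7 with disjoint intervals or with a transcript required in both libraries; the other 12 settings kept it within 1.5 times. The log2 fold change of the summed metallothioneins under the 50% rule was the least stable result because MT2A enters or leaves the sum. For NaB in HepG2 it was −1.89 and became −0.95 at 20% of exonic bases, −1.63 at 80%, −0.91 apportioned over annotated exons, −1.002 at 20% with FPKM times length, −0.95 at 20% with median-of-ratios scaling and −0.95 with every transcript of the cluster. For Cur and Pip in HepG2, 1.05 became 1.23 (largest transcript only), 0.27 (20%), −2.43 (80%), 0.038 (apportioned), −0.21 (20% with length), 0.25 (20% with scaling), 0.28 (whole cluster) and −1.79 (without MT2A). For the combination in HepG2, −1.46 became −0.26 (20%), −1.85 (80%), −0.25 (apportioned), −0.021 (20% with length), −0.29 (20% with scaling) and −0.26 (whole cluster). Under the Hep3B label, NaB at 0.76 became 0.93 (median-of-ratios scaling), −0.44 (80%), 0.38 (apportioned), 0.39 (20% with length), 0.94 (20% with scaling) and 0.017 (without MT2A). Cur and Pip there at −2.43 became −1.28 (20%), −1.20 (80%), −1.40 (apportioned), −0.23 (20% with length), −1.31 (20% with scaling), −1.24 (whole cluster) and −0.28 (without MT2A). The combination there at −1.41 became 0.28 (20%), −0.071 (80%), 0.15 (apportioned), 0.54 (20% with length), 0.32 (20% with scaling), 0.29 (whole cluster) and 0.73 (without MT2A). SLC30A1 under the Hep3B label turned negative when apportioned (−1.19 with NaB, −0.25 with Cur and Pip) and with FPKM times length (−1.22 and −0.25). Both measures are lower by construction where a transcript is cut short, as its transcript was in those libraries. The limma counts for NaB, Cur and Pip and the combination were 0, 4 and 11, and became 18, 29 and 59 with a pseudocount of 0.1. With a pseudocount of 5 the last 2 were 2 and 4, and with only genes listed in all 8 libraries 0 and 0. Scaling by median of ratios gave 20 for the combination, a trended prior 2 for Cur and Pip, the 20% limit 1 for NaB, and apportioning 1, 2 and 23. Leaving out any 1 of the 8 libraries gave 0 calls in every contrast. The limit of 20% with length or scaling, the sum without MT2A and the limma fits at 20% and apportioned were chosen after seeing the data. The cause of each shift was not tested beyond the placement and length of MT2A. No paired analysis was possible because each condition has 1 library and so no replicate numbers to pair, and the limma fit has the cell line as its only block.

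With 1 library per condition, the intervals cover the assembly and counting error of that library alone. Small differences outside the set also had intervals that did not overlap. One such gene was KEAP1 with the combination under the Hep3B label, at a log2 fold change of 0.20. MT1A, and MT1F in the treated HepG2 libraries and under the Hep3B label, have the widest intervals relative to their FPKM. A gene with no transcript is not shown to have no reads. The identity of the libraries labelled Hep3B is not known beyond their markers, and the metallothionein genes are near-identical, so reads shared among them cannot be told apart.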
